A study of Homo sapiens with 12 samples.

Results

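The response of prostate cancer cells to silencing of MUC1 was compared between LNCaP-AI and DU-145 cells, gene by gene, as the doxycycline (DOX) effect in LNCaP-AI minus the DOX effect in DU-145. Of 58037 identifiers in the table, 16800 entered the comparison by reaching 10 counts in 3 or more of 12 samples. Of these, 12984 passed the same filter of 3 samples within each line alone, so that a response could be measured in both. The filter had few genes at its edge: 768 identifiers reached 10 counts in exactly 3 samples and 570 in exactly 2.

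The 4 groups held 3 samples each. LNCaP-AI is a derivative of the androgen-dependent LNCaP line selected for growth without androgen, and DU-145 is an androgen-insensitive prostate cancer line. Both carried a DOX-inducible (tet) shRNA against MUC1, and each was kept for 7 days with vehicle or with DOX at 500 ng/ml. The labels give 1 medium for both lines, free of phenol red and with charcoal-stripped serum, which is depleted of androgen, whereas the study's methods give that medium for LNCaP-AI and ordinary serum for DU-145, so that a difference in medium cannot be told apart from one between the lines. The labels call the vehicle samples shCTL and the DOX samples shMUC1. Each line stands as a single engineered population, and cells with a control shRNA given DOX were not analysed here, so that an effect of DOX and one of MUC1 loss cannot be told apart. A difference between LNCaP-AI and DU-145 is likewise a difference between these 2 cultures, in everything that sets them apart.

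MUC1 encodes a membrane mucin that is cut into an extracellular and a transmembrane subunit, and the latter, MUC1-C, signals from the membrane and in the nucleus. Several stress and growth pathways bear on the results. ATF4 is a transcription factor made when amino acids are short or proteins misfold, and it turns on amino acid transporters, amino acid synthesis and tRNA charging. NRF2, encoded by NFE2L2 and held in check by KEAP1, turns on enzymes that detoxify oxidants and supply NADPH. Growth arrest and DNA damage response genes, such as the cell cycle inhibitor CDKN1A, hold back division after damage. Interferon-stimulated genes answer to type I interferon and to nucleic acid sensors.

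Total counts ranged from 16569613 to 26961777 per sample in LNCaP-AI and from 10423437 to 13544153 in DU-145. Values of 3 counts or fewer were taken as the floor, which covers counting error only. Within LNCaP-AI the main axis of variation (81.3% of the variance) was not the treatment: it set vehicle 1, DOX 2 and DOX 3 against the remaining vehicle samples and DOX 1. Of 9 LNCaP lineage markers, 6, among them KLK3, KLK2, FOLH1, TMPRSS2 and HOXB13, were at 3 counts or fewer in every DU-145 sample. The 9 DU-145 markers summed to 4340 to 4860 CPM (counts scaled to a common TMM-adjusted library size, the level used throughout) in DU-145, to 134 to 152 CPM in LNCaP-AI vehicle 1, DOX 2 and DOX 3, and to 1260 to 1480 CPM in the other 3 LNCaP-AI samples. CAV1, a membrane protein of caveolae, was at 0.268, 0.114 and 0.0564 CPM in vehicle 1, DOX 2 and DOX 3 but at 86.5, 83.8 and 75.2 CPM in vehicle 2, vehicle 3 and DOX 1. The basal keratin KRT5 reached 42.2, 49.8 and 38.1 CPM in those same 3 samples and at most 0.473 CPM in DU-145. KLK3, the gene of PSA, was present in all 6 LNCaP-AI samples at 132 to 448 CPM. Markers that should be absent from both lines summed to 22.5 to 30.4 CPM in LNCaP-AI and to 2.30 to 6.65 CPM in DU-145, with PTPRC, CD3E, LYZ and ALB at 3 counts or fewer in every sample of both. COL1A1 (vehicle mean 19.2 CPM) and VWF (3.66 CPM) were present in LNCaP-AI. CD79A went from 2, 1 and 1 to 21, 26 and 25 counts in DU-145. PECAM1 had 36, 72 and 62 counts and DCN 20, 20 and 18 in vehicle 2, vehicle 3 and DOX 1. In the other 3 LNCaP-AI samples both were at 2 counts or fewer. What set the 3 samples apart was not tested, and since 2 of them are vehicle and 1 is DOX, genes high in them vary widely within both LNCaP-AI groups. Whether these samples held other cells or had been exchanged was not tested either. Counts of line differences are therefore given also with a term for the division. Over all 16800 genes tested, that term raised the calls from 1543 to 4109. A list's count with the term is to be read beside this general rise. The shares of all genes given beside the lists are those without the term, and they do not apply to counts with it. With the term, the calls over all genes were nearly equal in number in both directions.

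MUC1, on chromosome 1 from 155185824 to 155192916 (GRCh38, GENCODE 44), had 36, 25 and 52 counts in LNCaP-AI vehicle and 8, 6 and 3 in LNCaP-AI DOX. In DU-145 it had 74, 60 and 59 counts with vehicle and 3, 3 and 3 with DOX, which is at the floor. MUC1 fell in both lines, and no DOX sample overlapped a vehicle sample of its line. Its log2 fold change was -2.46 (95% interval -3.05 to -1.88) in LNCaP-AI and -4.41 (95% interval -5.05 to -3.77) in DU-145, a difference of 1.95 on the log2 scale (edgeR adjusted p = 0.0240). The extent of silencing was therefore not the same in the lines as measured, with the DU-145 value resting on counts of 3 or fewer.

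Treatment changed many genes in each line, and the direction was the same in most genes called in both. Called at an adjusted p under 0.05, 2256 genes rose in LNCaP-AI (13.4% of those tested) and 1677 fell (9.98%), against 2035 (12.1%) that rose and 2048 (12.2%) that fell in DU-145. In 1643 genes both lines were called, which is 41.8% of the LNCaP-AI calls and 40.2% of the DU-145 calls. The direction was the same in 1469 of these, 754 up and 715 down. It was opposite in 174, or 10.6%, of which 123 rose in LNCaP-AI and fell in DU-145 and 51 did the reverse. Vehicle and DOX did not overlap in either line for 3374 genes (20.1% of those tested). The shares of rises and falls in each line are to be set beside the counts of every gene list given for that line.

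The difference between the lines was called for 1543 genes, of which 912 (5.43% of those tested) had a higher and 631 (3.76%) a lower DOX effect in LNCaP-AI, and 598 exceeded 1 on the log2 scale. Without LNCaP-AI DOX 1 the higher ones were a minority, 1388 of 3375. At the edge of the call, ENPP1 was inside with a difference of 0.91 (edgeR adjusted p = 0.0499) and CC2D1B outside with 0.47 (edgeR adjusted p = 0.0503). The 1543 genes comprised the 174 opposite responses, 139 called in the same direction but to a different extent, 504 called in LNCaP-AI alone, 676 called in DU-145 alone and 50 called in neither line by itself. A further 3550 genes were called in 1 line with no called difference, and they are not described as particular to that line. Across the genes passing in both lines, the log2 fold changes of the lines had a Pearson correlation of 0.296 over genes, which share samples and are not replicates. With a term for the division of LNCaP-AI, 4109 genes had a called line difference, higher in LNCaP-AI for 2051 of them, and 1540 of the 1543 were among them. Fitted with vehicle 1, DOX 2 and DOX 3 as the only LNCaP-AI samples, 3580 genes were called, and with vehicle 2, vehicle 3 and DOX 1, 2525.

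**Figure D1:**
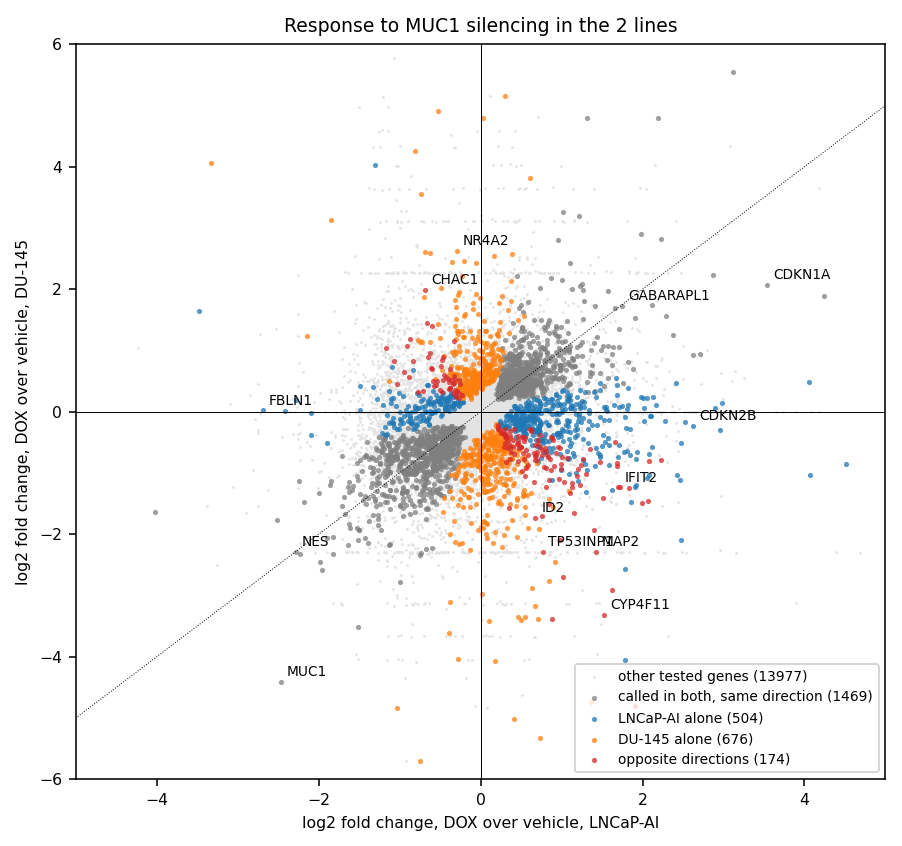
Each point is a gene, with its log2 fold change (DOX over vehicle) in LNCaP-AI on the x axis and in DU-145 on the y axis, coloured by response class with class sizes in the key; 3 genes lie outside the axes. The 174 opposite responses lie to the upper left and lower right of the origin, while the 1469 genes called in both lines in the same direction lie to the lower left and upper right, around the dotted line of equality.

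Levels are given for samples 1, 2 and 3 of a group, vehicle before DOX, and paired values without a unit are log2 fold changes, LNCaP-AI before DU-145 unless stated. Genes that rose in LNCaP-AI and fell in DU-145 were led by CYP4F11, a cytochrome P450 that hydroxylates fatty acids. On chromosome 19 from 15912367 to 15934867, it stood at 2.95, 3.16 and 3.13 CPM in LNCaP-AI vehicle 1, 2 and 3 and at 6.64, 8.69 and 11.3 CPM in DOX 1, 2 and 3, and at 20.8, 22.7 and 20.6 CPM in DU-145 vehicle and 1.60, 1.97 and 2.84 CPM in DU-145 DOX. All 3 DOX samples lay above vehicle in LNCaP-AI and all 3 below it in DU-145, for a difference of 4.84 on the log2 scale (edgeR adjusted p = 9.54e-05). MAP2, a neuronal microtubule-associated protein, went from 2.72, 3.85 and 3.13 to 6.97, 9.71 and 9.36 CPM in LNCaP-AI and from 6.48, 4.35 and 6.89 to 1.13, 1.496 and 0.976 CPM in DU-145, again without overlap in either line. Its log2 fold changes were 1.42 (SE 0.23) and -2.29 (SE 0.26), a difference of 3.71 on the log2 scale (edgeR adjusted p = 3.96e-04). FEZ1, a kinesin adaptor of axonal transport, had log2 fold changes of 1.99 and -1.49, at low counts (6, 5 and 7 in LNCaP-AI vehicle, 7, 7 and 8 in DU-145 DOX). RCAN2, a calcineurin inhibitor, and STON1, an endocytic adaptor, showed the same reversal, with log2 fold changes of 2.07 and 1.52 in LNCaP-AI and of -1.45 and -1.42 in DU-145. RCAN2 was at low counts too, 17, 4 and 11 in LNCaP-AI vehicle and 6, 7 and 6 in DU-145 DOX.

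The reverse pattern was a fall in LNCaP-AI and a rise in DU-145. DPYSL2, a regulator of axon growth and microtubules also called CRMP2, went from 155, 129.6 and 142 to 89.1, 78.8 and 72.4 CPM in LNCaP-AI and from 284, 246 and 270.0 to 497, 487 and 436 CPM in DU-145. No DOX sample overlapped vehicle in either line, with log2 fold change -0.83 in LNCaP-AI and 0.83 in DU-145 and a difference of -1.66 on the log2 scale (edgeR adjusted p = 2.75e-04). ADM2, a peptide hormone of the calcitonin family, stood at 36.7, 17.4 and 24.5 CPM in LNCaP-AI vehicle and 10.2, 12.2 and 12.6 CPM in DOX, against 8.85, 6.98 and 7.05 and 15.6, 18.3 and 13.5 CPM in DU-145. CDC42EP2, an effector of the GTPase CDC42, had a log2 fold change of -0.87 in LNCaP-AI and 1.18 in DU-145. ITPKA, a kinase of inositol trisphosphate that also bundles actin, had -1.07 and 0.83. The 51 genes had a median log2 fold change of -0.46 in LNCaP-AI and 0.52 in DU-145, against 0.71 and -0.70 for the 123 genes of the other direction. All 174 had the same sign of the LNCaP-AI effect on both sides of the division, which the calls in that line favour, and 173 were also in the class with a term for it. With each line fitted alone there were 110 opposite genes, 72 of them among the 174.

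**Figure D2:**
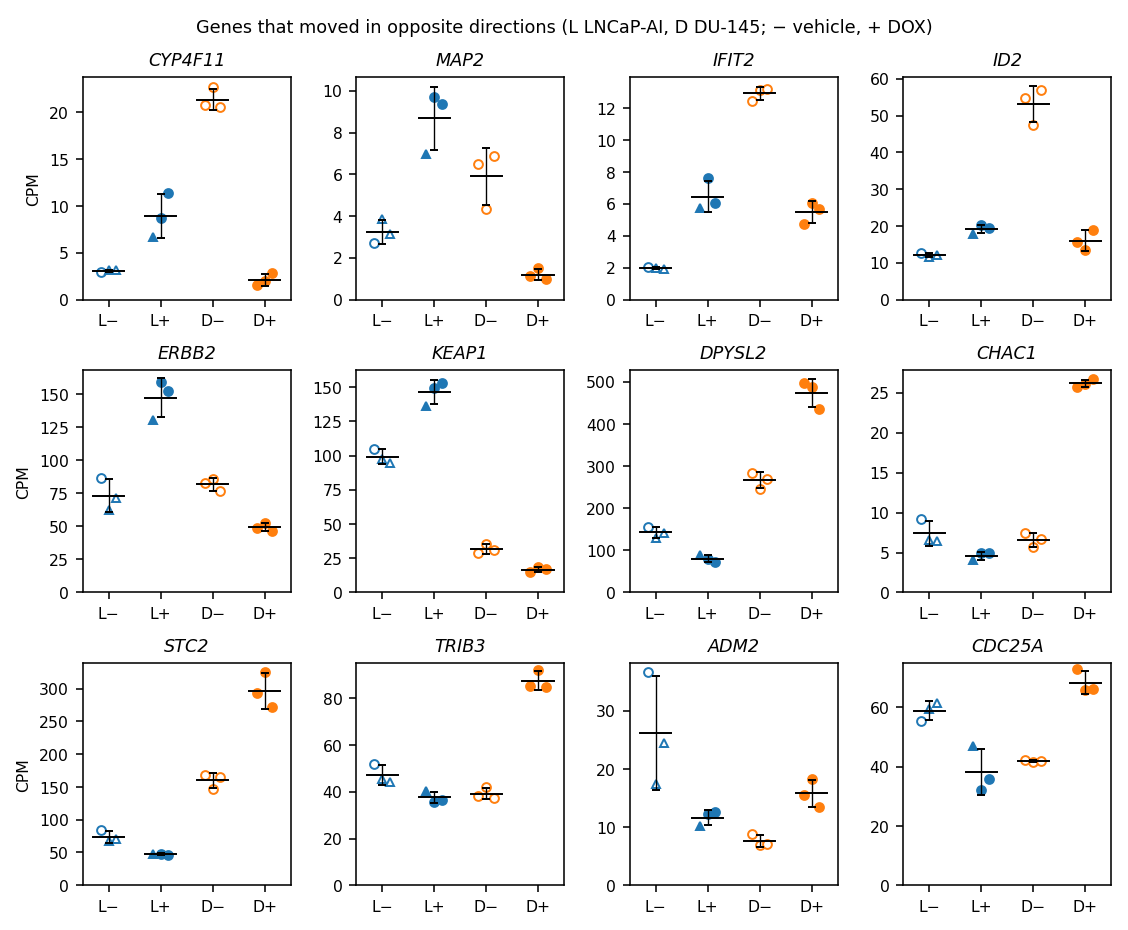
CPM (y axis, linear from 0) of 12 genes with opposite responses in every sample, by group (L LNCaP-AI, D DU-145; − vehicle, + DOX); points are samples, with triangles for LNCaP-AI vehicle 2, vehicle 3 and DOX 1, and bars the mean ± SD (n = 3). In each panel the DOX samples stand above vehicle in one line and below it in the other, as for CHAC1, which was at 25.8, 26.1 and 26.7 CPM in DU-145 DOX and at 4.03, 4.91 and 4.91 CPM in LNCaP-AI DOX.

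ATF4 targets differed between the lines mostly in 1 direction. Of 37 tested members, 24 rose and 1 fell in DU-145, while 3 rose and 14 fell in LNCaP-AI. The DOX effect was lower in LNCaP-AI for 21 of the 37, beside 3.76% of all genes, and higher for 0. Of those 21, 10 were opposite responses, 9 rose in DU-145 alone, 1 (CEBPG) fell in LNCaP-AI alone and 1 (ATF3) rose in both lines. Its median log2 fold change came to -0.29 for LNCaP-AI and 0.57 for DU-145, whereas over all genes tested it was -0.0321 and -0.00477. With vehicle 1, DOX 2 and DOX 3 as the LNCaP-AI samples 29 were lower, with the other 3 samples 23, and 1 was higher in each case. With the division term 29 were lower and 1 higher, and CEBPG and AARS1 became opposite responses.

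CHAC1, which degrades glutathione, is on chromosome 15 from 40952962 to 40956512 and went from 9.24, 6.58 and 6.43 to 4.03, 4.91 and 4.91 CPM in LNCaP-AI and from 7.46, 5.67 and 6.63 to 25.8, 26.1 and 26.7 CPM in DU-145. Its vehicle levels were thus close in the lines and its DOX levels were not, a difference of -2.67 on the log2 scale (edgeR adjusted p = 2.75e-04). TRIB3, a pseudokinase that feeds back on ATF4, was at 51.9, 45.3 and 44.3 CPM in LNCaP-AI vehicle and 40.2, 35.8 and 36.7 CPM in DOX, and at 38.2, 42.0 and 37.5 and 85.4, 92.2 and 85.0 CPM in DU-145. STC2, a secreted glycoprotein of the stress response, fell from 84.1, 68.0 and 69.9 to 48.2, 47.8 and 45.9 CPM in LNCaP-AI and rose from 168, 147 and 164.8 to 292, 325 and 272 CPM in DU-145. In these genes no DOX sample overlapped vehicle in either line. ATF4 itself had small opposite changes, log2 fold change -0.30 in LNCaP-AI and 0.27 in DU-145, a difference of -0.57 on the log2 scale (edgeR adjusted p = 0.0178). Enzymes of amino acid synthesis followed, with asparagine synthetase ASNS at -0.46 and 0.52 and the serine pathway enzyme PSAT1 at -0.48 and 0.32. The glycine transporter SLC6A9 had -0.94 and 0.65. CTH, which makes cysteine by transsulfuration, rose in DU-145 alone (1.78, against 0.22 in LNCaP-AI), as did the amino acid transporter SLC38A2 (0.82 against 0.05) and the alanyl-tRNA synthetase AARS1 (0.66 against -0.14). ATF3, a stress-induced transcription factor, was one of the 3 members that rose in LNCaP-AI, with a log2 fold change of 1.22 against 2.05 in DU-145.

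NRF2 targets had the reverse contrast. None of 30 tested members rose in DU-145 and 15 fell, while 9 rose and 0 fell in LNCaP-AI. The difference was higher in LNCaP-AI for 17, beside 5.43% of all genes, and lower for 0, and the list's median log2 fold change came to 0.33 for LNCaP-AI and -0.38 for DU-145. Of the 17, 6 were opposite responses, 8 fell in DU-145 alone and 3 rose in LNCaP-AI alone. With either side of the LNCaP-AI division alone 23 were higher and 0 lower, and with the division term 25 and 0. The starting levels were also far apart: NQO1, a quinone reductase, was at 1499, 1654 and 1492 CPM in DU-145 vehicle and 171, 144 and 139 CPM in LNCaP-AI vehicle.

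With DOX, NQO1 fell to 816, 766 and 794 CPM in DU-145 and was at 157, 166 and 164.8 CPM in LNCaP-AI, a difference of 1.07 on the log2 scale (edgeR adjusted p = 0.00102). UGDH, which makes UDP-glucuronate, fell from 504, 514 and 534 to 276, 259 and 250.5 CPM in DU-145 and was at 63.8, 62.3 and 53.7 and 64.2, 71.5 and 70.4 CPM in LNCaP-AI. TRIM16L, a near copy of TRIM16 with which it may share reads, fell in DU-145 from 92.5, 97.0 and 89.5 to 23.0, 17.7 and 19.6 CPM. KEAP1, the inhibitor of NRF2, was itself an opposite response, at 105.1, 97.1 and 94.7 and then 136, 149.6 and 153 CPM in LNCaP-AI and 28.9, 35.7 and 30.8 and then 14.6, 18.5 and 17.1 CPM in DU-145. NFE2L2, the gene of NRF2, fell in DU-145 (-0.72) and had a log2 fold change of -0.18 in LNCaP-AI. HMOX1, which breaks down heme, rose by 1.35 in LNCaP-AI and had -0.61 in DU-145, and OSGIN1, an oxidative stress-induced growth inhibitor, had 1.26 and -0.78. The thioredoxin reductase TXNRD1 (0.62 and -0.32) was opposite as well. GCLC, the catalytic subunit of glutathione synthesis, fell in DU-145 alone (-0.78), while PRDX1, TALDO1 and ME1 rose in LNCaP-AI alone (0.68, 0.82 and 1.11). The malic enzyme ME1 is also on the lipid synthesis list.

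Of 47 interferon-stimulated and MHC class I genes, 13 rose and 1 fell in LNCaP-AI, while 3 rose and 11 fell in DU-145. The difference was higher in LNCaP-AI for 15, beside 5.43% of all genes, and lower for 0, beside 3.76%. IFIT2, which binds viral RNA and blocks translation, went from 2.05, 1.98 and 1.91 to 5.74, 7.60 and 6.03 CPM in LNCaP-AI and from 12.5, 13.2 and 13.2 to 4.72, 6.07 and 5.68 CPM in DU-145. Vehicle and DOX did not overlap in either line, and DU-145 was the higher line with vehicle while the DOX levels overlapped between the lines, a difference of 2.94 on the log2 scale (edgeR adjusted p = 9.54e-05). GBP2, an interferon-induced GTPase, went from 2.28, 2.03 and 2.22 to 8.596, 11.2 and 11.1 CPM in LNCaP-AI and from 3.94, 3.54 and 5.04 to 2.45, 2.76 and 2.04 CPM in DU-145. IFIT1 and IFIT3 had log2 fold changes of 1.15 and 1.00 in LNCaP-AI and of -1.66 and -0.94 in DU-145. ISG15, a ubiquitin-like modifier, and IFI6 rose in LNCaP-AI alone (1.10 and 1.01). The 4 opposite members were at low levels in LNCaP-AI, with vehicle means of 1.84 CPM for IFIT3 and 2.18 CPM for GBP2. With either side of the LNCaP-AI division alone, 17 (vehicle 1, DOX 2 and DOX 3) and 16 (vehicle 2, vehicle 3 and DOX 1) were higher, and 2 and 0 lower. With the division term 20 were higher and 1 lower.

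**Figure D3:**
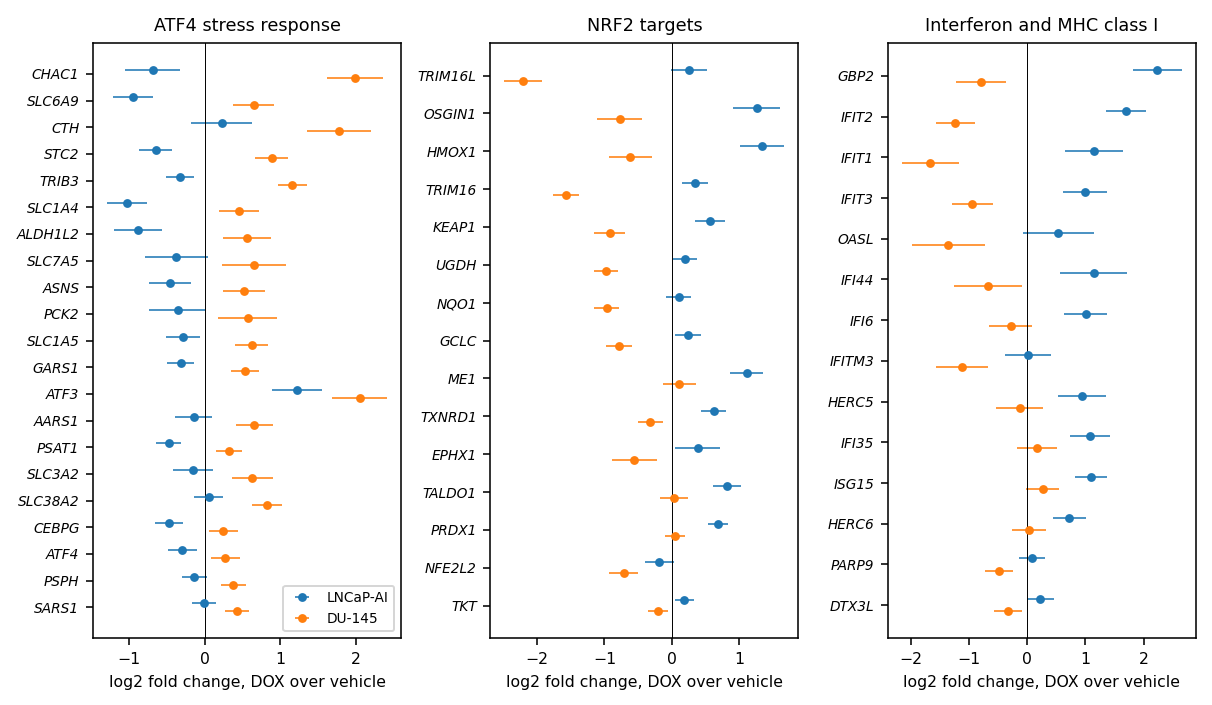
Log2 fold change (DOX over vehicle) with 95% intervals in LNCaP-AI (blue) and DU-145 (orange) for the members of 3 gene lists whose line difference was called; AKR1C2, an NRF2 target near the count floor, and members not reported here are left out. All 21 ATF4 members lie further right in DU-145, and all NRF2 and interferon members shown lie further right in LNCaP-AI, with IFIT2 at 1.70 and -1.24.

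The promoters of these lists were read in RefSeq sequences (GRCh38.p14) from 250 bases before to 50 after the start, which matched 11948 tested genes. The ISRE core, GAAANNGAA on either strand, is part of the element that interferon-activated factors bind. It was present in 22 of 36 promoters of the interferon list (61.1%), in 11 of 89 of the genes up in LNCaP-AI and down in DU-145 (12.4%), and in 6.25% of all tested promoters. The element TTGCATCA, which combines a C/EBP with an ATF recognition sequence, was in 4 of 41 promoters of the genes down in LNCaP-AI and up in DU-145 (9.76%) and in 0.502% of all. Those 4 were CHAC1, MARS1, SLC1A3 and BCL6, named after their values were seen, while on the ATF4 list it was in 2 of 31 (6.45%). The ARE core, TGACNNNGC, which can overlap the AP-1 site TGANTCA, was in 4 of 21 NRF2 target promoters (19.0%) and in 15.4% of all. These 3 motifs were added after the classes had been seen, and a match describes the letters only. The matches are in capitals in the stretches shown for being opposite responses that hold them, 5′ to 3′ on the strand of the gene.
IFIT1 (chr10:89392493-89392542, plus strand): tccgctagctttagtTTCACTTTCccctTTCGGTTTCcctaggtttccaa
IFIT3 (chr10:89327832-89327891, plus strand): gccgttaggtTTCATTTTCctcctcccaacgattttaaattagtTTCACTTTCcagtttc
CHAC1 (chr15:40953241-40953290, plus strand): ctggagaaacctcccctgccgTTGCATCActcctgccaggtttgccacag
SLC1A3 (chr5:36596348-36596397, plus strand): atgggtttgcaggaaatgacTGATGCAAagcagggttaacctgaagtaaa

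Most cell cycle genes on the lists fell in LNCaP-AI and fewer were called in DU-145. Of 77 G2/M genes, 75 fell in LNCaP-AI and 44 in DU-145, and of 62 S phase genes, 56 and 15, with none rising in either. The median log2 fold change of the S phase list was -0.80 in LNCaP-AI and -0.24 in DU-145, and of the G2/M list -1.13 and -0.55. The line difference was lower in LNCaP-AI for 16 S phase and 12 G2/M genes, and higher for 0, beside 3.76% and 5.43% of all genes. With the division term it was lower for 44 and 47, and higher for 0. MCM2, a subunit of the replicative helicase, went from 304, 248 and 255 to 172, 152 and 148 CPM in LNCaP-AI and was at 149, 145 and 136 and 155, 150.0 and 145 CPM in DU-145, where the groups overlapped, a difference of -0.84 on the log2 scale (edgeR adjusted p = 0.00373). MCM7, its partner, had log2 fold change -0.64 in LNCaP-AI and 0.16 in DU-145. RFC2, of the clamp loader, and RRM1, of ribonucleotide reductase, had -0.69 and -0.77 in LNCaP-AI and 0.00 and 0.07 in DU-145. Among mitotic genes, the kinase MELK went from 134, 129 and 106 to 56.8, 52.0 and 53.6 CPM in LNCaP-AI and from 282, 283 and 267 to 233, 229 and 238 CPM in DU-145. Vehicle and DOX did not overlap in DU-145 either, where the call was missed (log2 fold change -0.25, edgeR adjusted p = 0.0560) but made with the division term. The chromokinesin KIF4A (-1.16 and -0.05) and the cytokinesis regulator RACGAP1 (-0.98 and -0.14) were called in LNCaP-AI alone. In DU-145 RACGAP1 went from 267, 251 and 252 to 246, 219 and 234 CPM, without overlap and not called (edgeR adjusted p = 0.366). NUSAP1, which bundles spindle microtubules, fell in both (-1.26 and -0.41).

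E2F sites (TTTCCCGC, TTTGGCGC, TTTCGCGC or TTTGCCGC on either strand) were in 27 of 50 S phase promoters (54.0%) and 5.16% of all, and the CHR element TTTGAA, through which G2/M genes are repressed, in 42 of 67 G2/M promoters (62.7%) and 9.88% of all. Among response classes, the CHR element was in 27 of 125 promoters of genes that fell in LNCaP-AI alone (21.6%), in 94 of 571 that fell in both (16.5%) and in 22 of 270 that fell in DU-145 alone (8.15%). E2F sites were in 12 of 125 (9.60%), 55 of 571 (9.63%) and 7 of 270 (2.59%) of the same classes. The CCAAT box was in 64 of 125 (51.2%), 212 of 571 (37.1%) and 82 of 270 (30.4%), and in 36.6% of all promoters. Among other motifs searched, the AP-1 site and the CRE core TGACGTCA were in 4.81% and 3.17% of all promoters, and in 7.24% and 3.10% of the 290 promoters of genes that rose in LNCaP-AI alone. Examples from the genes that fell in LNCaP-AI alone are shown with the E2F site (MCM7) or CHR element (KIF4A and CKS1B, a cyclin-dependent kinase subunit) in capitals.
MCM7 (chr7:100101541-100101597, minus strand): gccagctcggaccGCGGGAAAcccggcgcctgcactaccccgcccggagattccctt
KIF4A (chrX:70290044-70290093, plus strand): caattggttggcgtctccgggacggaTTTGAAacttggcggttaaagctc
CKS1B (chr1:154974621-154974670, plus strand): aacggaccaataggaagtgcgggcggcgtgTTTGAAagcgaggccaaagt

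Of 54 growth arrest and DNA damage response genes, 29 rose and 0 fell in LNCaP-AI (33 and 2 at an unadjusted p under 0.05), and 14 rose and 8 fell in DU-145. The difference was higher in LNCaP-AI for 18 and lower for 2, beside 5.43% and 3.76% of all genes, and with the division term for 21 and 8. CDKN1A, the cyclin-dependent kinase inhibitor p21, rose in both, from 71.2, 62.5 and 74.1 to 698, 861 and 863 CPM in LNCaP-AI and from 47.2, 40.5 and 42.0 to 184, 183 and 175 CPM in DU-145. Its log2 fold changes were 3.54 (SE 0.11) and 2.06 (SE 0.11), a difference of 1.48 on the log2 scale (edgeR adjusted p = 4.58e-04). BTG2, an antiproliferative gene, went from 46.3, 28.6 and 32.1 to 106, 134 and 131 CPM in LNCaP-AI and was at 9.84, 8.70 and 8.57 and 8.02, 7.17 and 7.27 CPM in DU-145, a difference of 2.07 on the log2 scale (edgeR adjusted p = 0.00110). TP53I3, a quinone oxidoreductase, rose in LNCaP-AI alone (1.52 and -0.13), and TP53INP1, a stress-induced nuclear protein, rose in LNCaP-AI (0.77) and fell in DU-145 (-2.28). HBEGF, a ligand of EGFR, was one of the 2 members with a lower effect in LNCaP-AI (0.47 and 1.70).

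Other regulators of G1 differed as well. CDKN2B, the CDK4 and CDK6 inhibitor p15, went from 1.03, 0.910 and 0.764 to 4.32, 5.71 and 6.71 CPM in LNCaP-AI and was at 21.6, 21.6 and 19.9 and 17.8, 20.1 and 15.7 CPM in DU-145, a difference of 2.86 on the log2 scale (edgeR adjusted p = 2.75e-04). CDC25A, a phosphatase that activates CDK2, was an opposite response, with log2 fold change -0.62 in LNCaP-AI and 0.71 in DU-145. Cyclin D1 (CCND1) rose in LNCaP-AI alone (0.73 and 0.07). Of 21 genes on this list, 3 had a higher and 3 a lower effect in LNCaP-AI, and 6 and 7 with the division term. Over all genes, the shares for this list and the histone list without the division term were 5.43% higher and 3.76% lower. Replication-dependent histone genes in polyadenylated RNA rose in LNCaP-AI (12 of 16) and in DU-145 (5 of 16), with 6 differences higher in LNCaP-AI and 0 lower, and 7 and 0 with the division term. H2BC21 went from 43.1, 30.1 and 29.2 to 166, 217 and 208 CPM in LNCaP-AI and was at 31.5, 32.1 and 27.6 and 27.2, 26.1 and 27.5 CPM in DU-145. H2BC4 and H2BC5 had log2 fold changes of 1.55 and 1.53 in LNCaP-AI and 0.03 and 0.41 in DU-145. The mRNAs of this family are near-identical in places and normally lack a poly(A) tail, so that their counts from poly(A) libraries are uncertain.

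Androgen-responsive and luminal genes were called up for 23 of 41 in LNCaP-AI, with 2 that fell, and for 10 in DU-145, with 3 that fell. Of these, 9 had a higher and 4 a lower effect in LNCaP-AI, beside 5.43% and 3.76% of all genes. With the division term the counts were 12 and 8. SLC45A3, the luminal protein prostein, went from 15.6, 12.5 and 15.1 to 59.97, 64.4 and 69.1 CPM in LNCaP-AI and was at 4.92, 3.54 and 4.70 and 3.78, 5.28 and 5.23 CPM in DU-145, a difference of 2.05 on the log2 scale (edgeR adjusted p = 9.14e-04). HERC3, a ubiquitin ligase, rose in both (1.76 and 0.47), and the exporter ABCC4 in LNCaP-AI alone (0.63 and -0.13). NCAPD3, a condensin II subunit, fell in LNCaP-AI alone (-0.58 and 0.16). Of 17 neuroendocrine and pluripotency genes, 1 had a higher and 3 a lower effect in LNCaP-AI, beside the same shares of all genes. With the division term the counts were 1 and 7. EZH2, the histone H3 lysine methyltransferase, went from 67.5, 71.7 and 64.4 to 47.6, 37.6 and 40.7 CPM in LNCaP-AI and was at 129.9, 129.8 and 128 and 137, 140.0 and 139 CPM in DU-145, a difference of -0.79 on the log2 scale (edgeR adjusted p = 0.00343). MYC rose in DU-145 from 98.5, 101 and 93.5 to 146, 148 and 146 CPM and was at 268, 284 and 301 and 294, 265 and 271 CPM in LNCaP-AI. KLF4 rose in DU-145 (1.17), and its LNCaP-AI value of -0.78 (95% interval -1.45 to -0.10) was not called (edgeR adjusted p = 0.0929), whereas with the division term KLF4 was an opposite response. NCAM1, a neural adhesion molecule, fell in DU-145 from 33, 32 and 56 counts to 2, 0 and 2, and had 16, 16 and 8 and 5, 4 and 8 counts in LNCaP-AI.

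Growth factor signalling genes included few reversals. Opposite responses were 2 of 17 EGFR family genes and 1 of 44 immediate early and ERK feedback genes, beside 174 of all 16800 genes tested. ERBB2, the HER2 receptor, went from 86.5, 62.3 and 71.6 to 131, 159 and 153 CPM in LNCaP-AI and from 82.8, 86.3 and 76.8 to 49.0, 52.5 and 46.4 CPM in DU-145, a difference of 1.74 on the log2 scale (edgeR adjusted p = 4.63e-04). Its vehicle levels overlapped between the lines and its DOX levels did not. The ligand EGF went from 6.29, 4.44 and 4.79 to 10.6, 12.1 and 13.2 CPM in LNCaP-AI and from 4.75, 3.34 and 3.28 to 2.17, 1.57 and 2.22 CPM in DU-145. Of the 17 EGFR family genes, 2 had a higher and 1 (HBEGF) a lower effect in LNCaP-AI, beside 5.43% and 3.76% of all genes. With the division term, which raised the calls over all genes, 3 were higher and 7 lower. EGFR itself then fell in LNCaP-AI and rose in DU-145. Among 44 immediate early and ERK feedback genes, 13 rose and 2 fell in DU-145, and 6 rose and 1 fell in LNCaP-AI. Over all genes, 12.1% rose and 12.2% fell in DU-145, and 13.4% rose and 9.98% fell in LNCaP-AI. The 6 rises in LNCaP-AI are near the share of all genes. The difference was higher in LNCaP-AI for 2 and lower for 6, beside 5.43% and 3.76% of all genes. With the division term 5 were higher and 24 lower. The orphan nuclear receptor NR4A2 went from 5.57, 4.96 and 4.70 to 31.8, 31.4 and 30.5 CPM in DU-145 and was at 2.28, 3.16 and 4.10 and 3.14, 2.51 and 2.14 CPM in LNCaP-AI, a difference of -2.91 on the log2 scale (edgeR adjusted p = 5.61e-04). NR4A1 rose in DU-145 alone (1.41 against -0.31). FOSB, an AP-1 subunit, had 1, 1 and 2 counts in DU-145 vehicle, at the floor, and 38, 53 and 39 in DU-145 DOX, against 40, 100 and 158 and 115, 38 and 33 in LNCaP-AI, where the 3 samples with DU-145 markers were the highest. JUND, another AP-1 subunit, went the other way, with 0.34 and -0.46.

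Some epithelial junction genes rose in DU-145 alone, and vimentin changed in opposite directions. Of 42 keratin and junction genes, 11 rose and 1 fell in DU-145 and 6 rose and 1 fell in LNCaP-AI. The difference was lower in LNCaP-AI for 6 and higher for 1 (14 and 2 with the division term). Over all genes, the shares to set beside each list's counts without the division term in this paragraph were 3.76% lower and 5.43% higher. For the single lines they were 13.4% up and 9.98% down in LNCaP-AI, and 12.1% up and 12.2% down in DU-145. The 6 rises of the keratin and junction list in LNCaP-AI are near the share of that line. CLDN7, a tight junction claudin, went from 2.46, 2.63 and 2.69 to 7.36, 8.51 and 7.72 CPM in DU-145 and was at 100.5, 113 and 112 and 119, 98.6 and 101 CPM in LNCaP-AI, a difference of -1.63 on the log2 scale (edgeR adjusted p = 2.75e-04). E-cadherin (CDH1) went from 23.2, 24.9 and 24.6 to 66.9, 64.0 and 51.9 CPM in DU-145 and was at 680.0, 495 and 487 and 578, 698 and 665 CPM in LNCaP-AI. Even after the rise, both genes stayed well below their LNCaP-AI levels. ESRP1, an epithelial splicing regulator, and KRT18 rose in DU-145 alone (1.20 and 1.11, against -0.10 and 0.16). Of 55 mesenchymal and TGF-beta response genes, 8 fell and 2 rose in DU-145 and 1 fell and 5 rose in LNCaP-AI. These single-line counts are near or under the shares of all genes. The difference was higher in LNCaP-AI for 6 and lower for 1. With the division term, which raised the calls over all genes, the counts were 12 and 8. Vimentin (VIM) went from 903, 846 and 883 to 642, 569.8 and 557 CPM in DU-145 and from 27.00, 27.2 and 30.4 to 52.1, 56.7 and 55.8 CPM in LNCaP-AI, a difference of 1.53 on the log2 scale (edgeR adjusted p = 9.54e-05). ID2, an inhibitor of basic helix-loop-helix factors, went from 54.8, 47.6 and 56.9 to 15.8, 13.4 and 19.0 CPM in DU-145 and from 12.5, 11.4 and 12.1 to 17.9, 20.3 and 19.4 CPM in LNCaP-AI. SMAD6, an inhibitor of BMP signalling, and the tropomyosin TPM1 fell in DU-145 alone (-1.83 and -0.93). Of 26 integrin and laminin genes, 1 difference was higher and 3 were lower in LNCaP-AI (4 and 10 with the division term), with the collagen receptor subunit ITGA2 at 101, 82.4 and 101 and then 642, 569 and 527 CPM in DU-145 and at 22.4, 90.8 and 82.2 and 75.6, 23.3 and 21.99 CPM in LNCaP-AI, where it followed the division. The laminin chain LAMC1 rose in LNCaP-AI (0.79), and its DU-145 value of 0.22 without overlap (edgeR adjusted p = 0.0510) was called with the division term. Many genes of these lists are high in the 3 LNCaP-AI samples with DU-145 markers: the median difference of the mesenchymal list was -0.61, and 0.0539 with a term for the division, and that of the keratin and junction list -0.68 and -0.37. These medians of the line difference are therefore given with that reservation, and the part of the division in them was otherwise not tested.

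**Figure D4:**
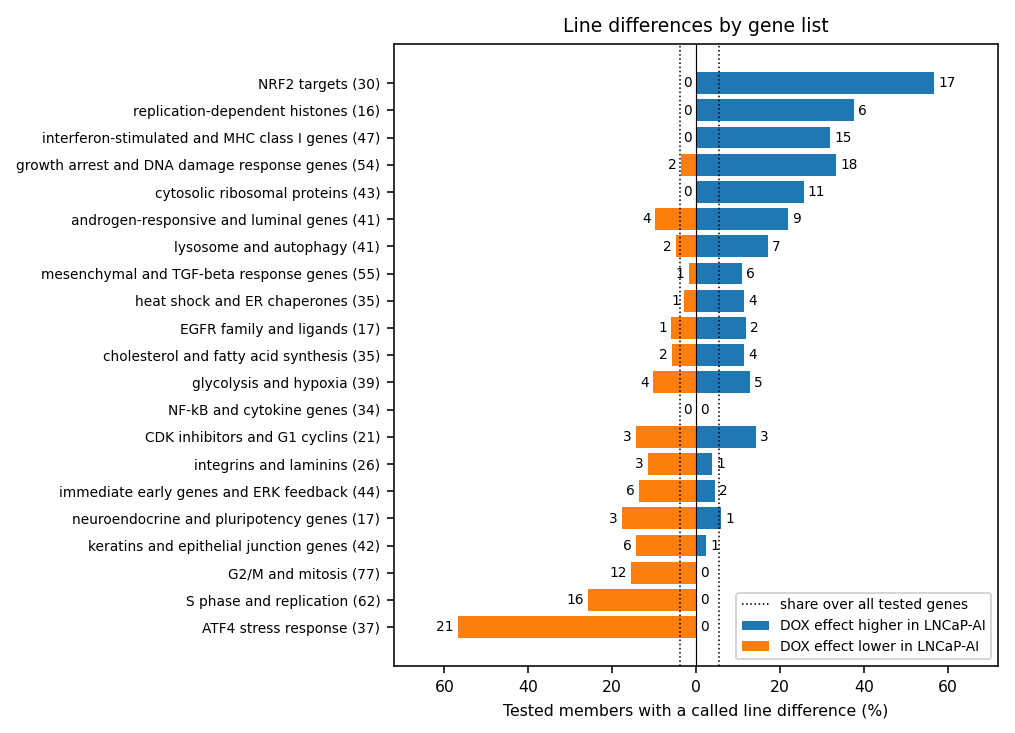
Percent of the tested members of each of 21 gene lists (number tested in parentheses) whose DOX effect was called higher (blue, right) or lower (orange, left) in LNCaP-AI than in DU-145, with counts at the bar ends and dotted lines at the shares over all tested genes, 5.43% and 3.76%. NRF2 targets (17 of 30 higher) and the ATF4 stress response (21 of 37 lower) stand at the 2 ends.

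Of 43 cytosolic ribosomal protein genes, 14 rose and 0 fell in LNCaP-AI and 0 rose and 5 fell in DU-145, and 11 differences were higher in LNCaP-AI and 0 lower, and 28 and 0 with the division term. The changes were small, and no member was lower with upper-quartile scaling (17 higher) or DESeq2 size factors (13 higher) either, as for RPL13A (0.56 and -0.26), RPL3 (0.49 and -0.25) and the opposite response RPL7A (0.28 and -0.34), and these genes have many processed copies with which reads may be shared. Of 41 lysosome and autophagy genes, 18 rose in LNCaP-AI and 21 in DU-145, 13 of them in both, and 7 differences were higher and 2 lower in LNCaP-AI (9 and 5 with the division term). GPNMB, a lysosomal membrane glycoprotein, rose in LNCaP-AI alone (1.80 and 0.04), and the cholesterol exporter NPC1 in DU-145 alone (-0.19 and 0.66). Of 35 genes of cholesterol and fatty acid synthesis, 4 differences were higher and 2 lower in LNCaP-AI (9 and 5 with the division term). Over all genes, the shares to set beside the counts of this paragraph without the division term were 5.43% higher and 3.76% lower. Without that term, the lower counts of the lysosome, cholesterol and chaperone lists are near the latter share. The counts with the term are not to be set beside these shares, since 4109 of all 16800 genes were then called. Whether they exceed that general rise was not tested. STARD4, a sterol carrier, went from 9.19, 9.58 and 10.1 to 28.1, 36.7 and 39.6 CPM in LNCaP-AI and was at 41.7, 33.7 and 50.6 and 32.9, 36.1 and 35.3 CPM in DU-145. TM7SF2, a sterol reductase, rose in LNCaP-AI alone (1.48 and -0.09). Among 39 glycolysis and hypoxia genes, 5 differences were higher and 4 lower (8 and 10 with the division term). VEGFA, the angiogenic growth factor, went from 177, 184 and 195 to 458, 474 and 459 CPM in DU-145 and was at 57.3, 76.6 and 74.97 and 67.3, 49.9 and 52.95 CPM in LNCaP-AI, a difference of -1.62 on the log2 scale (edgeR adjusted p = 0.00102). The aldolase ALDOC was an opposite response (1.13 and -1.16), as was the chaperone DNAJB4 (0.85 and -0.77) among 35 heat shock and ER chaperones, of which 4 had a higher and 1 a lower effect in LNCaP-AI (9 and 5 with the division term). Without that term, none of 34 NF-kB and cytokine genes had a difference called by edgeR, with 1 higher and 4 lower at an unadjusted p under 0.05, and DESeq2 called 1 higher and 2 lower and limma voom 0 and 1. With the division term edgeR called 4 higher and 5 lower of these 34, beside 4109 of all 16800 genes called in either direction. The inhibitor NFKBIA was then an opposite response. For the other lists with 0 called in one direction, DESeq2 and limma voom called 0 there too, and at an unadjusted p under 0.05 edgeR had 1 lower among the interferon genes and 0 in the rest. In the single lines, unadjusted p under 0.05 gave 1 S phase gene up in DU-145 and 0 for the other zeros of the cell cycle, NRF2, histone and ribosomal lists.

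Shared responses outnumbered opposite ones. Of the 1469 genes, 1330 had no called difference, and for 401 of the 677 that rose and 219 of the 653 that fell the 95% interval of the difference lay within 0.5 on the log2 scale. For the remainder a missing call does not show that the lines responded alike. GABARAPL1, an autophagosome protein, went from 16.9, 18.7 and 19.4 to 55.4, 65.4 and 64.0 CPM in LNCaP-AI and from 14.9, 15.1 and 14.4 to 49.3, 49.1 and 48.2 CPM in DU-145. The difference was 0.02 (95% interval -0.24 to 0.28). ENPP5, a membrane phosphodiesterase, had 1.66 and 1.69, with a difference of -0.03 (95% interval -0.59 to 0.53). DYNC1I1, an intermediate chain of dynein, rose by 1.99 and 2.91, and NRG4, a ligand of ERBB4, by 2.12 and 1.75.

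Among shared falls, nestin (NES), an intermediate filament of neural progenitors, went from 40.8, 19.9 and 24.6 to 4.89, 6.11 and 6.54 CPM in LNCaP-AI and from 6.64, 7.69 and 6.97 to 1.70, 1.57 and 1.06 CPM in DU-145, with a difference of 0.01 (95% interval -0.51 to 0.52). The transcription factor MYB went from 19.5, 14.7 and 14.6 to 5.13, 4.17 and 4.46 CPM in LNCaP-AI and from 2.21, 2.33 and 1.68 to 0.472, 0.315 and 0.710 CPM in DU-145. SCARA3, a scavenger receptor, had -1.98 and -2.44, and the scaffold DISC1 -1.96 and -2.58, the latter with an interval of the difference from -0.87 to 2.10. DISC1 was at low counts with DOX, 6, 3 and 4 in LNCaP-AI and 6, 6 and 2 in DU-145. In all 8 of these genes vehicle and DOX did not overlap in either line, which the rule for naming them required.

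Genes that moved the same way but to a different extent numbered 139, of which 41 moved further in LNCaP-AI and 98 in DU-145. Beside CDKN1A, KIAA0319, a transmembrane protein, rose further in LNCaP-AI, from 1.52, 1.60 and 1.46 to 8.47, 9.43 and 10.4 CPM against 10.5, 12.4 and 11.5 to 21.5, 21.7 and 22.5 CPM in DU-145. NIPAL3 rose further in DU-145 (0.59 and 1.79). SPINT1, an inhibitor of the protease matriptase, did so as well, from 31.8, 32.0 and 32.4 to 93.3, 87.8 and 81.1 CPM in DU-145 and from 191, 159 and 183 to 234, 233 and 234 CPM in LNCaP-AI.

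Responses of LNCaP-AI alone numbered 352 up and 152 down. The median log2 fold change of the rising genes was 0.87 in LNCaP-AI and -0.15 in DU-145. In 35 of the 352 and 2 of the 152, only LNCaP-AI passed the filter within the line, so that the absence of a DU-145 call rests on few counts there. H2BC21, CDKN2B, STARD4 and SLC45A3, described above, had the smallest adjusted p of the rises among genes under 0.5 (log2, absolute) in DU-145. Of the falls, APOBEC3B, a DNA cytidine deaminase, went from 26.3, 23.9 and 19.8 to 9.12, 9.20 and 9.59 CPM in LNCaP-AI and was at 6.64, 7.59 and 7.47 and 11.4, 8.35 and 9.13 CPM in DU-145. FBLN1, an extracellular matrix fibulin, went from 9.37, 4.87 and 6.04 to 0.693, 1.14 and 1.35 CPM in LNCaP-AI and was at 24.1, 27.7 and 22.8 and 25.3, 26.1 and 24.4 CPM in DU-145, a difference of -2.71 on the log2 scale (edgeR adjusted p = 0.00204). SCML2, a polycomb protein, had -1.12 and 0.34. All 504 genes had the same sign on both sides of the division, and 388 were also in the class with a term for it. Without LNCaP-AI DOX 1 the class held 1613 genes, and without DOX 3, 219.

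Responses of DU-145 alone numbered 336 up and 340 down. CITED2, a CBP-binding coactivator, went from 66.5, 57.7 and 69.1 to 213, 203 and 205 CPM in DU-145 and was at 77.5, 76.3 and 70.7 and 65.7, 73.1 and 72.2 CPM in LNCaP-AI, a difference of -1.77 on the log2 scale (edgeR adjusted p = 9.54e-05). RNF43, a ubiquitin ligase that removes Wnt receptors, went from 4.84, 4.55 and 3.53 to 15.1, 17.4 and 16.0 CPM in DU-145 and was at 41.9, 37.8 and 38.0 and 32.9, 31.6 and 32.5 CPM in LNCaP-AI. The DU-145 groups did not overlap in either gene. In LNCaP-AI the groups of RNF43 did not overlap either, with a fall that was not called (log2 fold change -0.28, edgeR adjusted p = 0.0822). Vehicle and DOX did not overlap in both lines for 73 of the 336 rises and 89 of the 340 falls, UGDH among the falls. Over all genes that share was 20.1%. LRATD2 rose in DU-145 alone as well (1.32, against 0.07). IGFBP3, which binds insulin-like growth factors, went from 132, 127 and 129 to 47.9, 48.4 and 51.9 CPM in DU-145 and was at 29.1, 20.3 and 20.7 and 24.9, 28.1 and 24.6 CPM in LNCaP-AI, a difference of 1.53 on the log2 scale (edgeR adjusted p = 0.00109). NEBL, an actin-binding nebulette, fell in DU-145 by 1.17 on the log2 scale and had 0.05 in LNCaP-AI. Of the 676 genes, 496 had an LNCaP-AI value of the same sign on both sides of the division, where no response was called. With a term for the division, 546 of the 676 stayed in the class, 478 of them with the same sign of the LNCaP-AI value. Of the genes described as called in 1 line alone, KRT18, LAMC1, MELK and NFE2L2 were called in both lines in the same direction with that term, and AARS1, APOBEC3B, CEBPG, RNF43, RPL13A, RPL3, SCML2, TRIM16L and KLF4 in opposite directions.

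**Figure D5:**
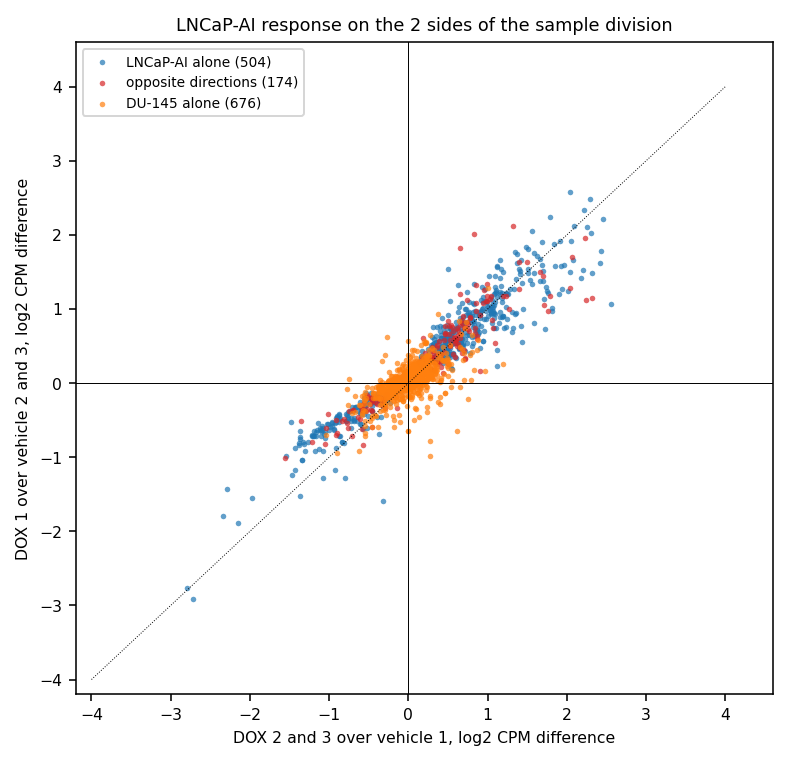
LNCaP-AI log2 CPM differences between DOX and vehicle within the 2 sides of the sample division, DOX 2 and 3 over vehicle 1 on the x axis and DOX 1 over vehicle 2 and 3 on the y axis, one point per gene, coloured by class (1 gene lies outside the axes). All 174 opposite responses and all 504 LNCaP-AI responses have the same sign on both sides, as the calls favour, while 496 of the 676 DU-145 responses do.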

How the data were processed

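Per the labels and the study's methods, RNA of 12 cultures (3 per group) was made into TruSeq Stranded mRNA libraries and sequenced. The authors deposited whole-number read counts per gene. The submitters' processing notes list CASAVA 1.8.2, STAR 2.7.0, DESeq2 1.24.0 and GRCh38.p7; the counting tool is not given in the sources used here. Symbols came for 56948 of 58037 identifiers, with positions from GENCODE 44.

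Counts were scaled by TMM and fitted over the 4 groups with edgeR 4.0.16 (quasi-likelihood test, R 4.3.3), with Benjamini-Hochberg adjustment over all genes tested and a threshold of 0.05. The line difference is the contrast of both DOX effects in that fit. Opposite, shared and one-line classes combine the 3 calls, and one-line classes also need a called difference. Alternatives used DESeq2 1.42.0, limma 3.58.1, other scalings and filters, and fewer samples. The labels do not say that the 3 samples of a group are separate cultures beyond being triplicates, so p-values measure the spread between these samples. Replicate counts differed beyond sampling noise (chi-square per degree of freedom at least 2.31). Same-numbered samples did not deviate together in LNCaP-AI (correlations -0.933, -0.786 and -0.819) or in DU-145 (0.0852, -0.0415 and 0.0372). In LNCaP-AI the division put same-numbered vehicle and DOX samples on opposite sides, so that these correlations cannot show whether cultures were paired there.

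Named genes had a symbol, were protein coding, had 10 counts in 3 samples of each line and, for LNCaP-AI responses, the same sign on both sides of the sample division. Per direction these were the 5 opposite and 4 shared genes with the largest smaller fold change without overlap, the 4 one-line genes with the smallest adjusted p of the difference and under 0.5 (log2) in the other line, the 2 same-direction genes with the smallest adjusted p, and up to 4 genes of each list, markers and MUC1. NCAM1 missed the count condition in LNCaP-AI and was kept after its values were seen. Markers were named whatever their counts. Beyond these rules, ATF4, ATF3, CEBPG, ASNS, PSAT1, CTH, SLC38A2, AARS1, NFE2L2, HMOX1, OSGIN1, TXNRD1, GCLC, PRDX1, TALDO1, ISG15, IFI6, TP53INP1, KRT5 and CKS1B were added after their values were seen. Some genes are not reported here. The members and lists were chosen with earlier results of these data known.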

Additional observations from a re-analysis of the deposited data

Results flagged for a closer look

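The contrast itself tested whether the DOX effect differed between the lines, and 1543 genes were called by edgeR at an adjusted p under 0.05. The named genes with a called difference are given here by list, as the log2 DOX effect in LNCaP-AI minus that in DU-145. A gene on several lists may stand under only some of them. No explanation was weighed. Among ATF4 stress response, the difference was called for CHAC1 (-2.67), TRIB3 (-1.49), STC2 (-1.53) and SLC6A9 (-1.59). Among CDK inhibitors and G1 cyclins, the difference was called for CDKN2B (2.86), CDKN1A (1.48), CDC25A (-1.32), CCND1 (0.66) and MYC (-0.63). Among EGFR family and ligands, the difference was called for ERBB2 (1.74), HBEGF (-1.23) and EGF (2.14). Among G2/M and mitosis, the difference was called for MELK (-0.93), RACGAP1 (-0.84), NUSAP1 (-0.85) and KIF4A (-1.11). Among NRF2 targets, the difference was called for UGDH (1.18), NQO1 (1.07), TRIM16 (1.92), TRIM16L (2.47) and KEAP1 (1.49). Among S phase and replication, the difference was called for MCM7 (-0.80), MCM2 (-0.84), RFC2 (-0.69) and RRM1 (-0.84). Among androgen-responsive and luminal genes, the difference was called for SLC45A3 (2.05), HERC3 (1.30), ABCC4 (0.76), NCAPD3 (-0.75) and KRT18 (-0.96). Among cholesterol and fatty acid synthesis, the difference was called for STARD4 (2.12), TM7SF2 (1.57), ME1 (1.00) and EBP (-0.73). Among cytosolic ribosomal proteins, the difference was called for RPL13 (0.61), RPL13A (0.82), RPL7A (0.62) and RPL3 (0.74). Outside the lists, it was called for CYP4F11 (4.84), FEZ1 (3.48), RCAN2 (3.52), MAP2 (3.71), STON1 (2.93), ADM2 (-2.22), CDC42EP2 (-2.05), ITPKA (-1.90), DPYSL2 (-1.66), KIAA0319 (1.69), NIPAL3 (-1.20), SPINT1 (-1.05), APOBEC3B (-1.74), SCML2 (-1.46), FBLN1 (-2.71), CITED2 (-1.77), RNF43 (-2.19), LRATD2 (-1.25), NEBL (1.22), IGFBP3 (1.53) and MUC1 (1.95). Among glycolysis and hypoxia, the difference was called for VEGFA (-1.62), ALDOC (2.29), CA12 (1.91) and ARRDC3 (1.05). Among heat shock and ER chaperones, the difference was called for DNAJB4 (1.62), HSPA9 (-0.59), HSPB1 (0.84) and MANF (0.52). Among immediate early genes and ERK feedback, the difference was called for NR4A2 (-2.91), NR4A1 (-1.72), JUND (0.80) and FOSB (-5.43). Among integrins and laminins, the difference was called for ITGB2 (-1.33), LAMC1 (0.56), ITGA2 (-3.30) and ITGA6 (-0.64). Among interferon-stimulated and MHC class I genes, the difference was called for IFIT2 (2.94), GBP2 (3.02), IFIT1 (2.81) and IFIT3 (1.94). Among keratins and epithelial junction genes, the difference was called for CLDN7 (-1.63), ESRP1 (-1.30), KRT18 (-0.96) and CDH1 (-1.11). Among lysosome and autophagy, the difference was called for ATP6V0D1 (-0.55), GPNMB (1.76), ASAH1 (0.70) and NPC1 (-0.85). Among mesenchymal and TGF-beta response genes, the difference was called for VIM (1.53), ID2 (2.40), SMAD6 (1.91) and TPM1 (1.14). Among neuroendocrine and pluripotency genes, the difference was called for EZH2 (-0.79), MYC (-0.63), KLF4 (-1.95) and NCAM1 (3.80). Among growth arrest and DNA damage response genes, the difference was called for CDKN1A (1.48), HBEGF (-1.23), BTG2 (2.07) and TP53I3 (1.65). Among replication-dependent histones, the difference was called for H2BC21 (2.703), H2BC5 (1.11), H2BC4 (1.52) and H3C10 (1.03). The fitted values of FOSB (vehicle counts 1, 1, 2 in DU-145), NCAM1 (DOX counts 2, 0, 2 in DU-145) and MUC1 rest on counts at or under the floor of 3 in a DU-145 group, so they depend on the prior count and are no bounds.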

How the results depend on the processing

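Of the 115 results on genes named by rule, 0 reversed direction under the alternatives run (16 of them with each line fitted alone, and 112 with DESeq2). The naming rule favoured this, since it took genes without overlap, with the same sign on both sides of the division, or with the smallest adjusted p. TMM gave 1543 line differences, 174 opposite, 1469 shared, 504 LNCaP-AI and 676 DU-145 responses. In that order, the counts were 884, 86, 931, 317 and 387 with no filter beyond 1 count, and 200, 5, 70, 65 and 73 with glmTreat at 1.5-fold, which asks for a larger change. With a term for the LNCaP-AI division they were 4109, 481, 2847, 1087 and 1762. The 2 subsets of LNCaP-AI were chosen after seeing the data: vehicle 1, DOX 2 and DOX 3 gave 3580, 468, 2632, 959 and 1483, and vehicle 2, vehicle 3 and DOX 1 gave 2525 line differences and 1545 DU-145 responses. DESeq2 gave 778 LNCaP-AI responses, and each line fitted alone 110 opposite and 282 LNCaP-AI responses. Other scalings, the 1 CPM filter and limma voom stayed within 1.5 times in all 5 counts. The causes were not tested.

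The replicate block, by number within each line although same-numbered samples did not deviate together, left 52 line differences, 19 opposite, 510 shared, 13 LNCaP-AI and 15 DU-145 responses. Of 115 results on named genes, 69 lost their call under the block and 41 with glmTreat, against at most 8 elsewhere.

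Leaving out 1 sample at a time gave 725 (without LNCaP-AI DOX 3) to 3375 line differences (without LNCaP-AI DOX 1, of which 1388 were higher in LNCaP-AI, a minority), 97 to 320 opposite, 984 to 1759 shared, 219 to 1613 LNCaP-AI and 353 to 1102 DU-145 responses. Without LNCaP-AI vehicle 1 there were 2592 line differences, and of the 12 omissions only DU-145 vehicle 2 and LNCaP-AI vehicle 2 kept that count within 1.5 times. DU-145 libraries were the shallower, and the median SE of a difference was 0.259 on the log2 scale.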
